A study of Arabidopsis thaliana with 2 samples.

Results

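CYP71B genes encode 1 subfamily of the cytochrome P450 monooxygenases. The genes described here are those whose symbol starts with CYP71B, which had a probe set assigned to them alone, and whose mean signal over both arrays reached 39.88 units. That level is the median of the mean signal over all Arabidopsis probe sets. The rule was met by 7 genes, of 5990 genes measured in the same way in the series. The members were thus chosen by their own signals, and with earlier results of these arrays in view, so every value below is a description.

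The mutant plants were BOUNTIFUL, a gain-of-function line of Arabidopsis thaliana in the Ws-0 background whose activation tag, an I/dSpm insert, lies in a locus called BOU. They were set against wild-type Ws-0 plants, to find transcripts whose level differs between the genotypes. Total RNA came from a mixture of the 4 youngest rosette leaves at stage 6.50, and both genotypes were raised on a compost mix under glass (23 °C, days of 16 h). Each genotype was read on 1 ATH1 array with 22746 Arabidopsis probe sets, which gives 1 brightness value, the MAS5 signal, for each probe set, a group of probes for a transcript. There was thus no replicate, no test could be made and no error can be given for any difference. The labels give neither the number of plants behind each mixture nor the position of BOU, and they name 1 BOUNTIFUL line. In mixed leaf tissue, fewer cells of a type and less RNA per cell cannot be told apart.

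Plant P450 enzymes sit in the membrane of the endoplasmic reticulum, carry a haem group and take electrons from NADPH through a reductase to insert oxygen into small molecules. Gene duplication has spread the CYP71B subfamily in Arabidopsis into rows of neighbouring copies. Its best-known member, PAD3 (CYP71B15), makes the antifungal indole compound camalexin, and CYP71B6 oxidises indole-3-acetonitrile on the way to indole-3-carboxylic acid. PAD3 was not analysed here. Of the 7 members, CYP71B6 is the one with a role stated here, and the others are described by their values and their place on the chromosome.

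In the young leaves, 6 of the 7 genes had a lower signal in BOUNTIFUL than in Ws-0, and CYP71B34 had a higher one, beside 55.1% of all passing probe sets, those that reached the level of the rule, with a log2 ratio below 0. Only CYP71B23 differed by at least 2-fold among the 7 on the deposited scale, and it was lower in BOUNTIFUL, as were 3.98% of passing probe sets. CYP71B26 lay just under that size. A log2 ratio here is log2(signal + pseudocount) in BOUNTIFUL minus the same in Ws-0, with a pseudocount of 7.77 units, and a fold on this scale understates the difference of low signals.

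CYP71B23 (AT3G26210) had a signal of 36.7 units in BOUNTIFUL and 129 units in Ws-0. The BOUNTIFUL signal was thus 28.4% of the Ws-0 signal, and the log2 ratio was -1.62, a 3.08-fold difference. Only 0.862% of the 11373 probe sets that reached the same level had a lower log2 ratio. CYP71B26 (AT3G26290), which lies in the same row of CYP71B genes, had 59.1 units in BOUNTIFUL and 123 units in Ws-0, a log2 ratio of -0.97. A lower log2 ratio was found for 4.33% of probe sets. Without the pseudocount its BOUNTIFUL signal was 48.1% of the Ws-0 signal, a 2.08-fold difference, so its place at the 2-fold line rested on that choice.

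CYP71B5 (AT3G53280), from another stretch of chromosome 3, had 50.9 units in BOUNTIFUL against 83.5 units in Ws-0, a log2 ratio of -0.64. CYP71B35 (AT3G26310) was close to it, with 36.5 units in BOUNTIFUL, 58.4 units in Ws-0 and a log2 ratio of -0.58. CYP71B28 (AT1G13090), on chromosome 1, had 229 units in BOUNTIFUL against 324 units in Ws-0, a log2 ratio of -0.49. The BOUNTIFUL signals of CYP71B5, CYP71B35 and CYP71B28 were 61.0%, 62.4% and 70.7% of their Ws-0 signals, all short of a 2-fold difference.

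CYP71B6 (AT2G24180), the indole-3-acetonitrile oxidase, had the smallest difference of the 7 genes on the deposited scale. It had 399 units in BOUNTIFUL and 486 units in Ws-0, a log2 ratio of -0.28. CYP71B34 (AT3G26300) was the gene with the opposite sign, at 325 units in BOUNTIFUL and 216 units in Ws-0. Its log2 ratio was 0.57, a 1.48-fold difference, and 88.0% of passing probe sets had a lower log2 ratio.

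**Figure D1:**
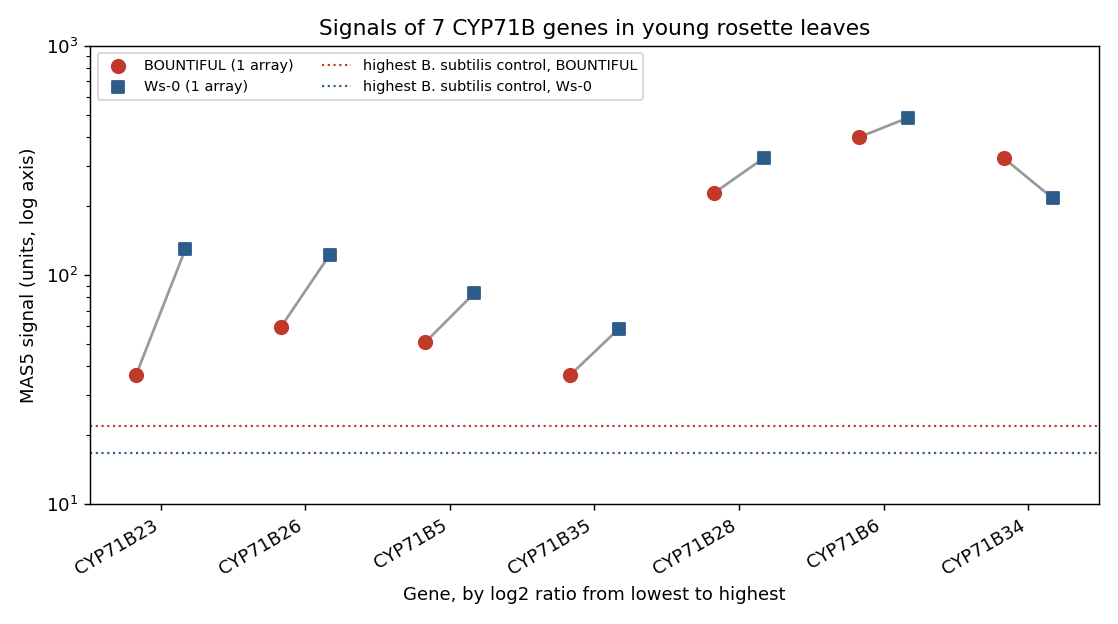
MAS5 signals (units, log axis) of 7 CYP71B genes, with the BOUNTIFUL array as red circles and the Ws-0 array as blue squares, 1 array each, and the highest Bacillus subtilis control signal of each array as a dotted line. The line between the points slopes up to Ws-0 for 6 genes and down for CYP71B34, and all points lie above the dotted lines. Signals of different probe sets cannot be compared as levels.

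Both signals of each of the 7 genes lay above all 27 Bacillus subtilis control probe sets, which read background and reached 21.9 units in BOUNTIFUL and 16.7 units in Ws-0. The rule asked for a mean signal of at least 39.88 units, above both of these values. It thus largely set this outcome in advance, and the comparison is no separate check of detection. The lowest member signal was 36.5 units in BOUNTIFUL and 58.4 units in Ws-0, both of CYP71B35. Each member was read by 1 probe set, so no second probe set gives a check within the arrays. For 33 other genes read by 2 passing probe sets, the log2 ratios from the 2 readings lay a median of 0.21 apart, and at most 1.26 apart. The 16 control probe sets for actin, GAPDH and ubiquitin had log2 ratios, with no pseudocount, from -0.38 to 0.30. The log2 ratio of CYP71B6 lay inside that range and those of the other 6 genes outside it. Many of all passing probe sets, whose log2 ratios had an SD of 0.62, also lay outside it. A place outside that range thus does not set a gene apart. None of these spreads stands in for the spread between plants, which was not measured.

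Over all 11373 passing probe sets, 453 were at least 2-fold lower in BOUNTIFUL, the 3.98% given above, which 1 of 7 genes is too few to be read against. At least 2-fold higher signals were found for 0 of the 7 genes and for 4.63% of passing probe sets. The median log2 ratio was -0.58 over the 7 genes and -0.06 over all passing probe sets, and without CYP71B23 the median of the other 6 genes was -0.53. The SD over genes, 0.67, was about that over all passing probe sets, 0.62. With 1 array per genotype and members chosen with results in view, no test was made of whether the subfamily stands apart.

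**Figure D2:**
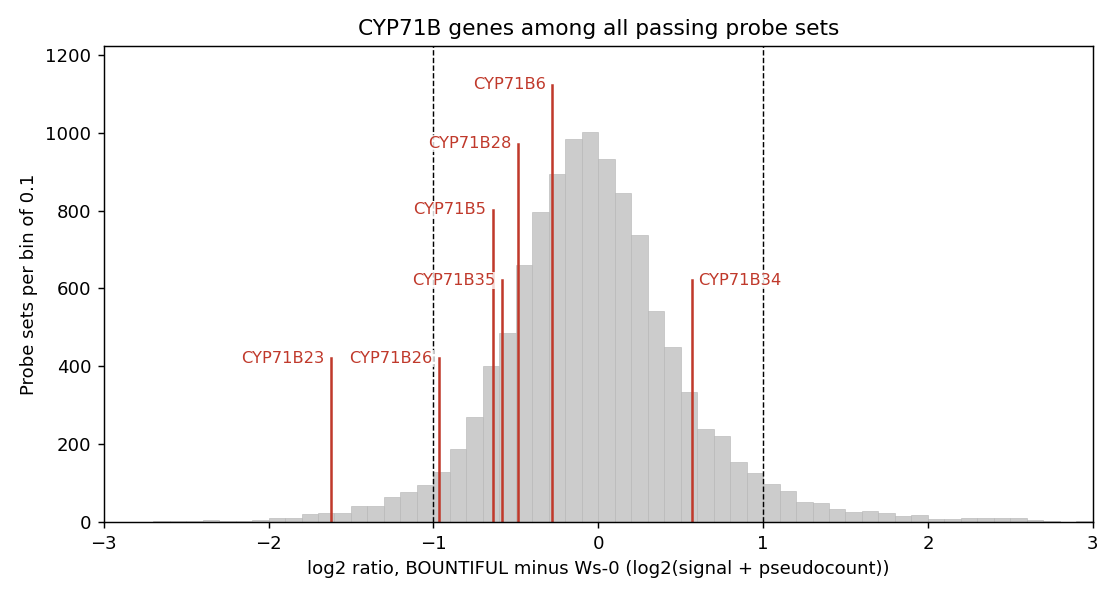
Number of passing probe sets (y) by log2 ratio of BOUNTIFUL minus Ws-0 in bins of 0.1 (x), with each CYP71B gene as a red line whose height has no meaning and 2-fold differences as dashed lines. CYP71B23 lies in the lower tail at -1.62, 5 genes lie between -0.97 and -0.28 and CYP71B34 lies at 0.57. The axis ends at -3 and 3, beyond which lie 41 probe sets.

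The 4 members with a mean signal under 116 units, the 75th percentile of all Arabidopsis probe sets, were CYP71B23, CYP71B26, CYP71B5 and CYP71B35, with a median log2 ratio of -0.80. The 3 brighter members, CYP71B28, CYP71B6 and CYP71B34, had a median of -0.28. Among all passing probe sets, 3.55% of those under that mean signal and 4.41% of those at or above it were at least 2-fold lower in BOUNTIFUL. These shares are another measure than the medians, and the pseudocount shrinks the ratios of dim probe sets more. The part of brightness in the lower median of the dimmer members was not tested.

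The 4 members CYP71B23, CYP71B26, CYP71B34 and CYP71B35 come from 1 row of neighbouring genes on chromosome 3. In the TAIR10.1 gene table, the row from CYP71B16 to CYP71B37 holds 24 genes and pseudogenes, of which 18 are CYP71B and 6 are not. Probe sets of their own were named for 11 of the 18. CYP71B34 and CYP71B35 are direct neighbours, and their log2 ratios differed by 1.15, at 0.57 for CYP71B34 and -0.58 for CYP71B35. CYP71B26 lies before CYP71B34, with the pseudogene CYP71B33 between them, and its log2 ratio was 1.53 below that of CYP71B34. The row thus held the lowest and the highest log2 ratio of the 7 genes. A factor that multiplies all signals of an array leaves such differences between genes almost unchanged. Over the deposited scale and the 10 alternative settings that keep both genes, the difference between CYP71B34 and CYP71B35 ran from 0.98 to 1.26. Only the scalings and pseudocounts among these settings could move it.

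**Figure D3:**
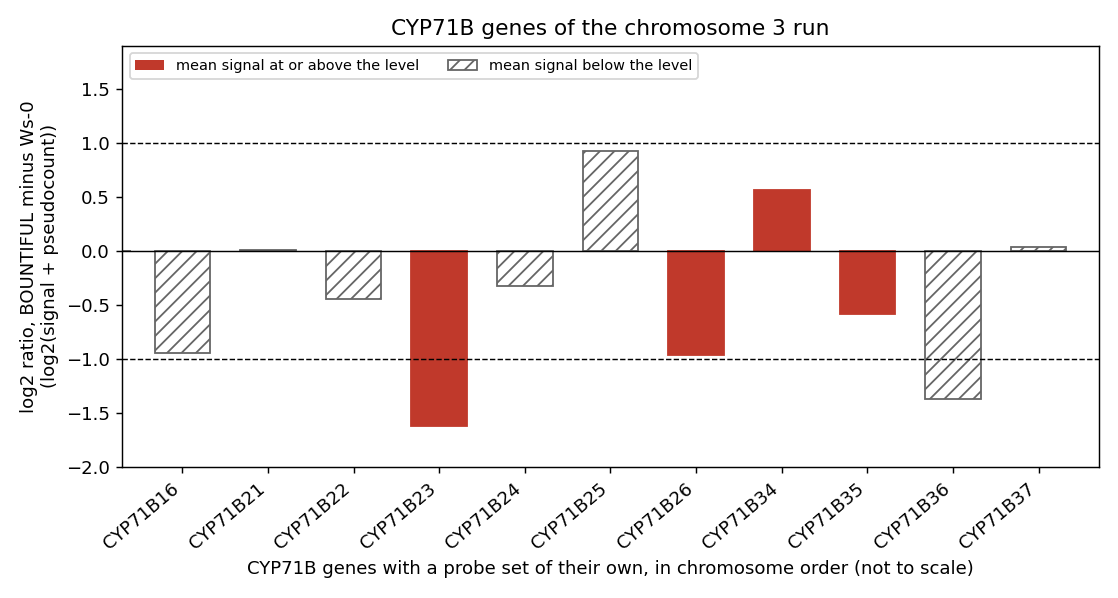
Log2 ratio of BOUNTIFUL minus Ws-0 (y) for the 11 CYP71B genes of the chromosome 3 row with a probe set of their own, in gene order and not to scale (x). Filled bars reached the signal level and hatched bars did not. CYP71B34 at 0.57 stands between CYP71B26 at -0.97 and CYP71B35 at -0.58.

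The remaining members lie elsewhere. CYP71B28 belongs to a row of 5 CYP71B genes and pseudogenes on chromosome 1, from CYP71B27 to CYP71B7, and CYP71B5 opens a row of 5 genes on chromosome 3 that ends with CYP71B32. Of these 5, 4 are CYP71B, with CYP71B30P a pseudogene by its name, and 1 is not. CYP71B6 stands alone on chromosome 2, between AT2G24170 and SDR2. The direct neighbours CYP71B3 (after CYP71B23), CYP71B4 (before CYP71B26) and CYP71B2 (before CYP71B28) were not analysed here. Copies of a duplicated gene can share stretches of sequence. How far a probe set of 1 member also reads RNA of its relatives was not tested, since probe sequences were not used here.

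A further probe set is assigned to both CYP71B19 and CYP71B20, which are neighbours in the chromosome 3 row. It had 310 units in BOUNTIFUL and 528 units in Ws-0, a log2 ratio of -0.75. It is outside the rule because its signal cannot be divided between these genes, and 7.77% of passing probe sets had a lower log2 ratio.

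A further 12 CYP71B genes had a probe set of their own below the level, with mean signals from 0.49 to 24.2 units. The genes nearest below the level were CYP71B22, at 24.2 units on average, CYP71B36, at 23.9, and CYP71B29, at 16.7, while CYP71B35, at 47.4, was the one nearest above it. CYP71B36, the next gene after CYP71B35, had 9.88 units in BOUNTIFUL and 38.0 units in Ws-0. CYP71B29, the next gene after CYP71B28, had 7.11 units in BOUNTIFUL and 26.4 units in Ws-0, and CYP71B22, the gene before CYP71B23, had 19.4 units in BOUNTIFUL and 29.1 units in Ws-0. In all 3 the BOUNTIFUL signal lay at or below the highest control of its array, and the Ws-0 signal lay above it. Their log2 ratios, -1.37 for CYP71B36, -1.20 for CYP71B29 and -0.44 for CYP71B22, depend on the pseudocount for their size. Of all 12 genes below the level, 6 had a log2 ratio below 0 and 6 had one above 0. Over all 19 CYP71B genes with a probe set of their own, 12 were below 0, beside 52.6% of all Arabidopsis probe sets with no filter. Among these 19, 3 were at least 2-fold lower and 1 at least 2-fold higher in BOUNTIFUL, beside 3.51% and 4.17% of all Arabidopsis probe sets.

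Of all 11373 Arabidopsis probe sets below the level, 4.07% were above the controls on the BOUNTIFUL array alone and 14.6% on the Ws-0 array alone. The controls reached a higher signal on the BOUNTIFUL array, which makes the second of these easier to meet. The other 9 of the 12 genes had signals within the range of the controls on both arrays. The same share over all probe sets below the level was not counted, so this says nothing particular to the subfamily. CYP71B31, which takes part in the oxidation of the floral scent compound linalool in flowers, was one of these 9 genes, at 1.78 units in BOUNTIFUL and 0.64 units in Ws-0. CYP71B38 had 15.0 units in BOUNTIFUL and 1.75 units in Ws-0, a log2 ratio of 1.26 between a pair of signals that cannot be told from background. The other 7 were CYP71B16, CYP71B21, CYP71B24, CYP71B25, CYP71B27, CYP71B30P and CYP71B37. Of the 36 genes that the gene table names CYP71B, the remaining 15 were not analysed here.

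The sign of the smaller differences rested on how the arrays were scaled. Transcripts added to each hybridisation as spikes were measured through 9 newer and 9 older probe sets, all with a lower signal on the BOUNTIFUL array, by a mean log2 ratio of -0.35 (SD over probe sets 0.080) and -0.55 (SD 0.18). Setting the newer spikes equal put the median log2 ratio of all passing probe sets at 0.27, and setting the older ones equal put it at 0.45. Under the newer spikes CYP71B6 stood at 0.07 and the other 5 lower genes stayed below 0. Under the older spikes CYP71B6 stood at 0.26 and CYP71B28 at 0.04. All 6 genes lay below the median of the passing probe sets under both of these scalings, as on the deposited scale. Multiplying an array by 1 factor moves the genes and that median almost together, so this gives no further support.

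CYP71B23 was at least 2-fold lower in BOUNTIFUL under all 11 alternatives, with log2 ratios from -1.82 to -1.16, although the stricter filter on mean signal leaves it out of the counts. The filters and choices of probe set among the alternatives cannot change the log2 ratio of a gene read by 1 probe set. The alternative labelled as the brightest probe set of a gene repeated the deposited scale for all probe sets. Only the scalings and pseudocounts could move it. CYP71B34 was above 0 under all the alternatives, with log2 ratios from 0.53 to 1.10. Its highest value, with the older spikes set equal, was the one that passed 2-fold, and 14.6% of passing probe sets did so under that scaling.

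**Figure D4:**
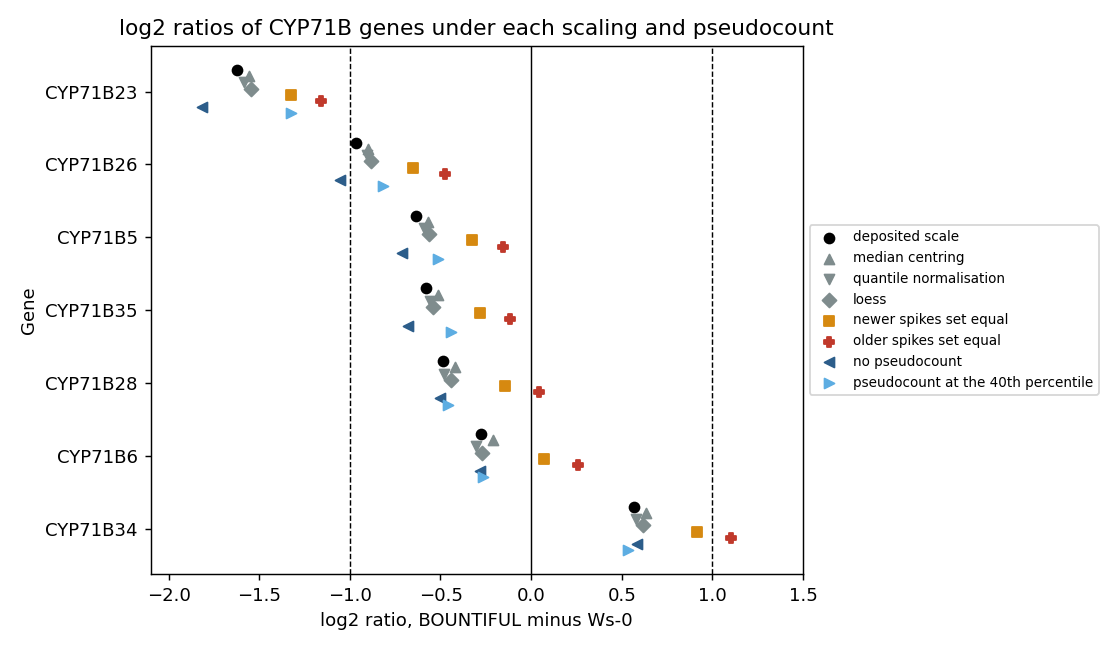
Log2 ratio of BOUNTIFUL minus Ws-0 (x) of the 7 CYP71B genes (y) on the deposited scale, under 5 other scalings and under 2 other pseudocounts, with 2-fold differences as dashed lines. The symbols of CYP71B23 all lie left of -1 and those of CYP71B34 right of 0, while the spike scalings bring CYP71B6 and, with the older spikes, CYP71B28 across 0.

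Few other genes of P450 metabolism could be read beside them under the naming of probe sets used here. Of the 11373 passing probe sets, 5348 were not assigned to exactly 1 gene, and other P450 genes may be among these. Outside CYP71B, named probe sets covered 5 P450 genes, and 1 of these passed the filter. This was CYP78A9, of a family that promotes organ growth, with 35.7 units in BOUNTIFUL and 76.4 units in Ws-0, a log2 ratio of -0.95. CYP84A4, CYP79A2, CYP718 and CYP51G2 were below the level. Their signals lay within the range of the controls on both arrays, except that CYP51G2, at 19.0 units in BOUNTIFUL and 23.8 units in Ws-0, was above it in Ws-0, so no ratio is read from them. Of 18 listed genes of the camalexin and indole-3-acetonitrile pathway, 1 had a named probe set, the oxidase gene FOX1 (AT1G26380), at 5.29 units in BOUNTIFUL and 1.33 units in Ws-0, both within the range of the controls.

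Of 6 genes of tryptophan synthesis, which feeds the indole pathway, 1 was measured, the indole-3-glycerol phosphate synthase gene IGPS (AT2G04400), at 275 units in BOUNTIFUL and 250 units in Ws-0, a log2 ratio of 0.14. Of 11 genes listed as P450 redox partners, 1 had a named probe set, the diflavin reductase gene ATR3 (AT3G02280). It had 21.9 units in BOUNTIFUL and 25.3 units in Ws-0, below the level, and whether it serves P450 enzymes was not tested. These lists were thus read through 1 gene each and say nothing of the pathways as a whole.

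Leaf markers matched the labelled tissue. Of 7 listed, 5 were covered by a named probe set, and all 5 passed the filter. Of these, 4 had a higher signal in BOUNTIFUL, with log2 ratios of 0.79 for PSAN and 0.74 for PSAE-1, both photosystem I subunits, and of 0.70 for LHCB4.2 and 0.22 for LHCB4.1, both antenna proteins. The Rubisco activase gene RCA was the lower one, at 3587 units in BOUNTIFUL and 4492 units in Ws-0, a log2 ratio of -0.32. The median log2 ratio of the 5 leaf markers was 0.70, beside -0.58 for the CYP71B genes. Of 10 listed markers of root hairs, flowers, pollen and seeds, 5 were covered and 0 passed. They ran from 1.10 to 26.1 units in BOUNTIFUL (sum 49.1) and from 2.36 to 25.0 units in Ws-0 (sum 61.9). The root hair gene EXPA18 had the highest signal on each array, above the controls on both. EXPA7, also of root hairs, was above the controls in Ws-0 alone, at 21.7 units. The part of these markers in the results was not tested.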

How the data were processed

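Leaf RNA of BOUNTIFUL and Ws-0 was measured on 1 Affymetrix ATH1 array each. The authors deposited a linear intensity per probe set. Per the submitters' processing notes it came from MAS5, whose version is not given in the sources used here. Detection calls were not used. The BOUNTIFUL array had a median of 38.9 units and the Ws-0 array one of 39.0 units. Precision is limited by having 1 array per genotype.

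Log2 ratios were computed with Python 3.11.15, numpy 2.4.6 and pandas 2.3.3 by subtracting the Ws-0 from the BOUNTIFUL value of log2(signal + pseudocount), with the 20th percentile of all signals as pseudocount. Control probe sets (64 of 22810) were left out, and probe sets passed at a mean signal of 39.9 units, the median. Probe sets were named by a platform annotation of the array, updated through the TAIR10.1 gene table, and those with several genes were kept out of the members. A difference was counted from 2-fold. Without replicates no test was run. On simulated data, the scalings other than the deposited scale were required to give known changes back. Those data had low noise and changes larger than most seen here, and spikes and genes were shifted by the same factor. The check thus does not show which scaling is right or how sure the 2-fold counts are.

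All members of the rule are named, with the 3 genes nearest below its level, any CYP71B neighbours and, of each list, up to 4 genes in each direction among those that passed the filter. Named as well, after their values were seen, are the other CYP71B and P450 genes below the level and some list genes below it. The same holds for the shared probe set and the genes beside CYP71B5 and CYP71B6. The members, lists and alternatives were chosen with earlier results of these data known. The alternatives in scaling were median centring, quantile normalisation, loess (statsmodels 0.14.6, span 0.3) and both spike scalings. Those in pseudocount were none or the 40th percentile (24.8 units). The filter was dropped or raised to the 75th percentile, or probe sets marked for cross-hybridisation were removed. The last alternative was labelled as the brightest probe set of a gene. It left all 11373 passing probe sets in place and changed no value. It thus repeated the deposited scale with its usual filter and gave no check. Figures were drawn with matplotlib 3.10.9.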

Additional observations from a re-analysis of the deposited data

How the results depend on the processing

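No paired analysis was possible because there was a single array per genotype, and no array could be left out. A log2 ratio was taken as moved when it shifted by over 0.21, the median difference between paired probe sets of a gene. With the newer spikes set equal, log2 ratios were -1.33 for CYP71B23, -0.65 for CYP71B26, -0.33 for CYP71B5, -0.28 for CYP71B35, -0.14 for CYP71B28, 0.069 for CYP71B6 and 0.91 for CYP71B34, with a median of -0.28, and -0.66 for CYP78A9, the 1 other P450 gene. With the older spikes they were -1.16, -0.47, -0.15, -0.12, 0.044, 0.26 and 1.10 in the same order, with a median of -0.12, and -0.49 for CYP78A9, and 1 CYP71B gene was at least 2-fold higher. These scalings multiply every BOUNTIFUL signal by 1 factor. The pseudocount at the 40th percentile gave -1.33 for CYP71B23 and -0.74 for CYP78A9, since a larger constant shrinks ratios of low signals, and with none 2 genes were at least 2-fold lower, beside 4.78% of passing probe sets. With no filter 19 CYP71B genes entered, with a median of -0.33, 3 at least 2-fold lower and 1 higher, and the median of the 5 other P450 genes was -0.10, with 3 of the 5 at background on both arrays. The background was then 3.51% lower and 4.17% higher. The filter at the 75th percentile left 3 CYP71B genes, with a median of -0.28 and 0 at least 2-fold lower, and no other P450 gene. The other 88 values of these results moved less or not at all. Many could not move, since a filter or choice of probe set leaves the ratio of a single probe set as it is. Medians of the camalexin and redox partner lists had no value, since none of their genes passed. Signals under 21.9 units in BOUNTIFUL or 16.7 in Ws-0 cannot be told from background.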

Other observations

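AT2G24170, the gene just before CYP71B6 on chromosome 2, had 110 units in BOUNTIFUL and 37.5 units in Ws-0, a log2 ratio of 1.38, while CYP71B6 stood at -0.28. AT3G53270, the gene just before CYP71B5, had 24.9 units in BOUNTIFUL and 39.4 units in Ws-0 and was below the level, with a log2 ratio of -0.53 beside -0.64 for CYP71B5. Both were looked up for their position, after the values of the CYP71B genes were seen, and neither is a P450 gene in the gene table.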
